A study of Mus musculus with 53 samples.

Results

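The comparison described here is dietary reversal in the prediabetic mouse model: 7 sciatic nerve samples from mice returned from a high-fat diet to a control diet (HFD-DR) were set against 7 from mice kept on the high-fat diet (HFD), all aged 24 weeks. These 14 samples were chosen by their labels for diet, age, dietary reversal and absence of streptozotocin (STZ, a toxin of insulin-producing cells), out of 53 samples in the series. All mice were male C57BL/6J. The high-fat diet supplied 60% of its energy as fat and began at 5 weeks of age, and the HFD-DR mice moved to the control diet at 16 weeks of age for 8 weeks. A further 3 groups of the same age served as reference: 8 control-diet samples (SD), 8 HFD-STZ samples and 6 HFD-STZ-DR samples, the last 2 being the fat-fed groups that also received STZ. The other 3 groups of the series were SD, HFD and HFD-STZ samples aged 16 weeks. They entered only the alternative fits of all 8 groups and the limit on high values. The model is diet-induced obesity in an inbred strain of 1 sex, and the labels do not say whether each sample is a separate mouse, so p-values measure the spread between these samples.

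The sciatic nerve holds axons wrapped by Schwann cells, which make myelin, together with fibroblasts, vessels, resident macrophages and mast cells, and it lies in epineurial fat against muscle. Fat tissue around organs takes up fatty acids, esterifies them to triglyceride in lipid droplets and releases adipokines such as leptin, and in obesity it gathers macrophages that carry lipid-handling and matrix-degrading genes. In a bulk sample, fewer cells of a type and less RNA per cell cannot be told apart.

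The promoters of the only 2 genes past the adjusted threshold are shown, since both changed in the same direction and their levels went together from sample to sample. Tph2, the tryptophan hydroxylase of serotonin-making neurons, lies on the minus strand of chromosome 10 from 115078641 to 115185022. Ubd, which encodes the ubiquitin-like modifier FAT10, lies on the plus strand of chromosome 17 from 37193892 to 37196095 (GENCODE M21, GRCm38). Each sequence below is the 250 bases before the RefSeq start (GRCm38.p6), written 5′ to 3′ on the gene's strand, at chr10:115185023-115185272 for Tph2 and chr17:37193642-37193891 for Ubd. Capitals mark matches, on either strand, to 4 motifs, chosen after the sequences were seen: TATAAA, GGGNNTTCC (a κB-type motif), TGANTCA (an AP-1-type motif) and TTGCNNAA (a C/EBP-type motif).
Tph2: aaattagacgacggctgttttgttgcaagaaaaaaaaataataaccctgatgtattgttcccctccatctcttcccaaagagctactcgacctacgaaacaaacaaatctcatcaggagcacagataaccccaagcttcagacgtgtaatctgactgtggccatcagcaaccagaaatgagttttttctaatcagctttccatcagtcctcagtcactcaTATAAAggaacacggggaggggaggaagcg
Ubd: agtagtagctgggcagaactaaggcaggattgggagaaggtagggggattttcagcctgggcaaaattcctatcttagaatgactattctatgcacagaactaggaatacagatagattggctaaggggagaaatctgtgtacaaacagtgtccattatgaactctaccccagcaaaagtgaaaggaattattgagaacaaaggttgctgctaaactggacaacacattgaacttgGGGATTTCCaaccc
Tph2 held a TATAAA that begins 30 bases before the start, and 12.4% of 32841 RefSeq promoter windows of this length held these letters anywhere. Ubd held GGGATTTCC, which begins 14 bases before the start, and 4.98% of the promoters held a match to that motif. Neither window held the AP-1-type or C/EBP-type letters, found in 6.75% and 9.57% of promoters. These matches describe the letters alone.

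After dietary reversal the genes with the smallest p were lower, but large differences were more often higher. Of 18479 genes tested, 2 (0.0108%) passed an adjusted p of 0.05, namely Tph2 and Ubd, and both fell (limma, Benjamini-Hochberg over all genes). A wider set of 1242 genes (6.72%) had an unadjusted p under 0.05, of which 844 (4.57%) were lower in HFD-DR and 398 (2.15%) were higher. The median log2 difference over all genes tested was -0.0019 and 50.6% of genes had a difference below 0. The 7 HFD-DR samples lay wholly below the 7 HFD samples for 22 genes (0.119%), and wholly above them for 0 genes (0%). Differences of at least 1 on the log2 scale were more often higher (180 genes, 0.974%) than lower (124 genes, 0.671%). All 8 genes with an adjusted p under 0.1 were lower in HFD-DR. The shares at an unadjusted p under 0.05, 4.57% lower and 2.15% higher, are the background for every list count below.

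**Figure D1:**
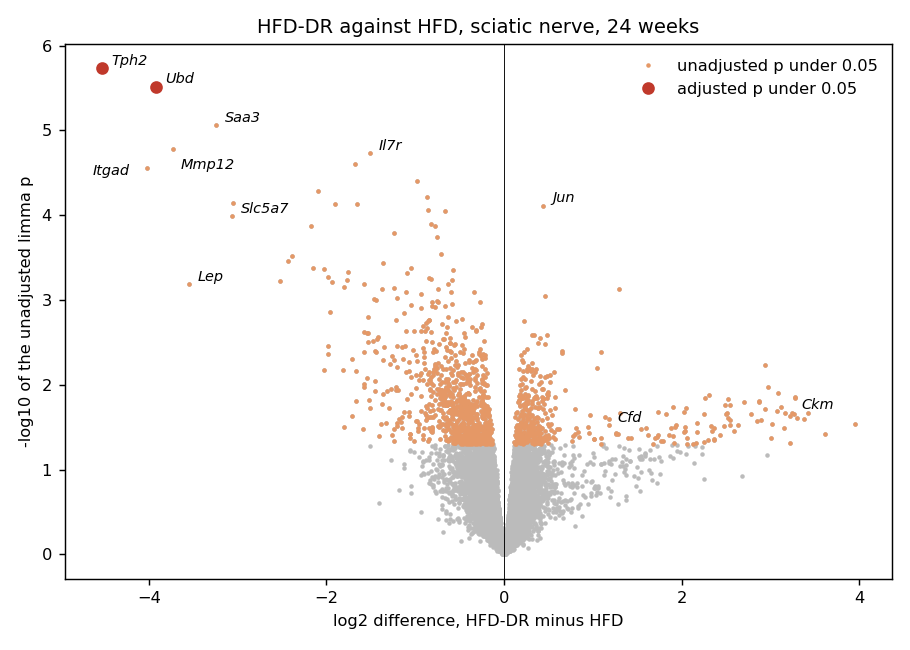
Each point is 1 of 18479 genes, with the log2 difference (HFD-DR minus HFD) on the x axis and -log10 of the unadjusted limma p on the y axis. Tph2 and Ubd, in red, passed the adjusted threshold, and the points highest on the y axis lie left of 0, while a low arm of large positive differences near 3 holds muscle genes such as Ckm.

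Tph2 ranged from 7.67 to 10.59 in HFD with a median of 9.47, and from 3.45 to 6.78 in HFD-DR with a median of 4.17, in deposited log2 values. Every HFD-DR sample lay below every HFD sample. Tph2 fell by 4.52 on the log2 scale (SE 0.61, limma adjusted p = 0.028), which is 23.0-fold on the linear scale. The exact two-sided permutation p was 0.000583, the smallest that the 3432 splits of 7 against 7 allow. In SD the gene ranged from 3.16 to 4.45, and 5 of the 7 HFD-DR samples lay within or below that range. The 2 HFD-DR samples above it, replicates 3 and 6, were at 6.78 and 6.36.

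No second gene of serotonin metabolism passed. Of 16 tested genes of serotonin synthesis, transport and reception, only Tph2 passed the adjusted test. The group's median log2 difference was 0.03. Slc6a4, the serotonin transporter, had a log2 difference of -0.61 (SE 0.18, limma adjusted p = 0.525). Tph1, the hydroxylase of peripheral tissues, had a difference of -0.27, and Ddc, the decarboxylase that completes serotonin synthesis, one of -0.14.

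Ubd ranged from 7.04 to 10.19 in HFD with a median of 8.62, and from 3.20 to 6.24 in HFD-DR with a median of 4.37. The groups did not overlap. Ubd fell by 3.92 on the log2 scale (SE 0.55, limma adjusted p = 0.028), or 15.1-fold on the linear scale, with the same exact permutation p of 0.000583. SD ranged from 3.95 to 5.26, and 2 HFD-DR samples lay above that range, again replicates 3 and 6. Of the 10 tested genes of the ubiquitin-like and immunoproteasome group, Ubd alone passed the adjusted test, and it was also the only member with an unadjusted p under 0.05. Psmb8 and Psmb9, immunoproteasome subunits that share inducers with Ubd, had log2 differences of 0.05 and -0.10. With 1 sample left out at a time, the log2 difference stayed between -4.88 and -4.29 for Tph2 and between -4.18 and -3.66 for Ubd. The adjusted calls were less steady. The limma adjusted p ranged from 0.00448 to 0.107 for Tph2 and from 0.0139 to 0.107 for Ubd. It rose above 0.05 for both genes without HFD replicate 1, 4, 6 or 7 or HFD-DR replicate 1, 2, 4, 5 or 7, and also with robust or untrended variance priors (0.0708 and 0.0612) or no filter on low values (0.127).

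Adipocyte marker levels moved with both genes inside the HFD group, and also with other genes that were lower in HFD-DR. In the 7 HFD samples the correlation with the mean adipocyte marker level was Pearson r = 0.988 for Tph2 (exact permutation p = 0.000397, adjusted 0.00397 over 10 relations; Spearman rho 0.964, exact p = 0.00278, adjusted 0.0139) and remained 0.976 without the 2 samples farthest from the median. In the 7 HFD-DR samples it was 0.657 (exact permutation p = 0.095, adjusted 0.136; rho 0.786, exact p = 0.048, adjusted 0.0686). For Ubd the values were 0.980 in HFD (exact permutation p = 0.00119, adjusted 0.00529; rho 0.929, exact p = 0.00675, adjusted 0.0169) and 0.857 in HFD-DR (exact permutation p = 0.00972, adjusted 0.0162; rho 1, exact p = 0.000397, adjusted 0.00397). Without the 2 farthest samples r was 0.650 for Tph2 in HFD-DR, and 0.961 and 0.791 for Ubd in HFD and HFD-DR. The other relations among the 10 were those of Mmp12, Saa3 and Itgad, described below. Their r was 0.985, 0.965 and 0.945 in HFD, and 0.619, 0.547 and 0.428 in HFD-DR. A high correlation in HFD was thus not particular to Tph2 and Ubd. The correlation in HFD was also 0.98 for Trem2, 0.98 for Dgat2, 0.92 for Slc5a7 and 0.96 for Lep, itself among the averaged markers. In HFD it was lower for Il7r (0.747) and Jun (0.327). These further genes were not among the 10, so the adjustment does not cover them. The share of all genes with so high a correlation is not given here. The adipocyte marker mean ranged from 10.8 to 13.4 in HFD, from 9.81 to 12.8 in HFD-DR and from 9.98 to 12.8 in SD. With that mean as a covariate, the log2 difference was -3.72 for Tph2 and -3.10 for Ubd, both past the adjusted threshold (limma adjusted p = 0.000542 and 3.156e-05). In that fit 20 of 18479 genes passed in place of 2, 16 lower and 4 higher. Cfd and Pck1 were among them and are themselves among the averaged markers. So is Lep, which itself differed by -3.55 between the groups, so the covariate was not independent of the diet.

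**Figure D2:**
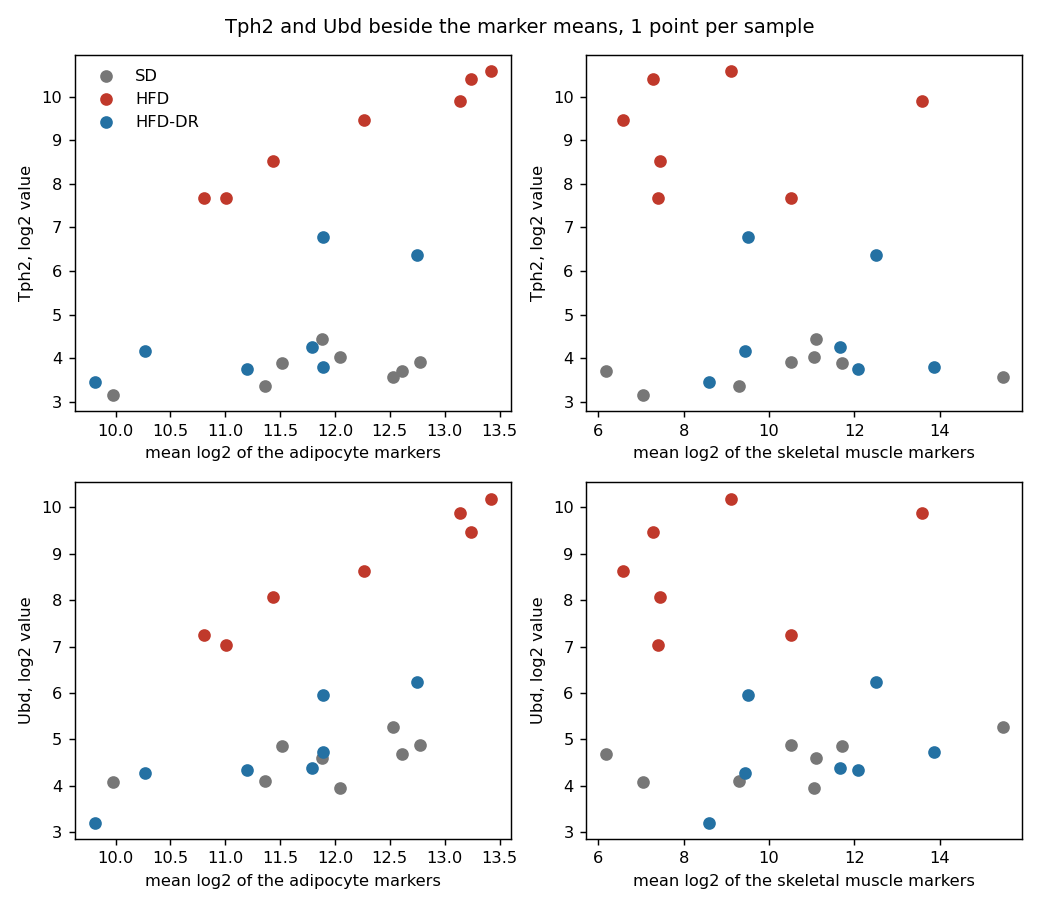
Each point is 1 sample, with the mean log2 level of the adipocyte (left) or skeletal muscle (right) markers on the x axis and the log2 level of Tph2 (top) or Ubd (bottom) on the y axis. HFD samples lie above HFD-DR and SD samples of like adipocyte marker mean.

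The 5 genes whose pattern was most like Tph2, by the mean of the Pearson correlations within the 2 groups of 7 samples, were 1700047G03Rik (0.960), Tfr2 (0.944), Ubd (0.942), Dock8 (0.938) and C6 (0.938). Adipoq ranked 53 and Lep ranked 15 on this measure.

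No other gene passed the adjusted threshold, and Saa3, Il7r, Mmp12 and Itgad were among those ranked next. Saa3, an acute-phase serum amyloid made by fat and macrophages, ranged from 5.82 to 8.70 in HFD (median 7.24) and from 2.83 to 5.11 in HFD-DR (median 3.64). The groups did not overlap, with a log2 difference of -3.25 (SE 0.50, limma adjusted p = 0.054). Il7r, the receptor for interleukin-7, ranged from 5.65 to 7.18 in HFD (median 6.57) and from 4.31 to 5.40 in HFD-DR (median 4.90), again without overlap, and differed by -1.51 (SE 0.25, limma adjusted p = 0.069).

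Mmp12, the macrophage elastase, ranged from 9.44 to 11.19 in HFD (median 10.30) and from 4.75 to 9.57 in HFD-DR (median 5.90). The highest HFD-DR sample reached into the lower end of the HFD range, and the difference was -3.73 (SE 0.61, limma adjusted p = 0.069). Itgad, the integrin αD of fat and spleen macrophages, ranged from 6.76 to 10.45 in HFD (median 8.94) and from 3.20 to 7.88 in HFD-DR (median 4.07), with 1 HFD-DR sample among the HFD values. Its difference was -4.03 (SE 0.69, limma adjusted p = 0.073). In its longest transcript, 8.2% of windows of 100 bases were found in other genes too, mostly in Itgax, so its level is less certain than that of the others.

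**Figure D3:**
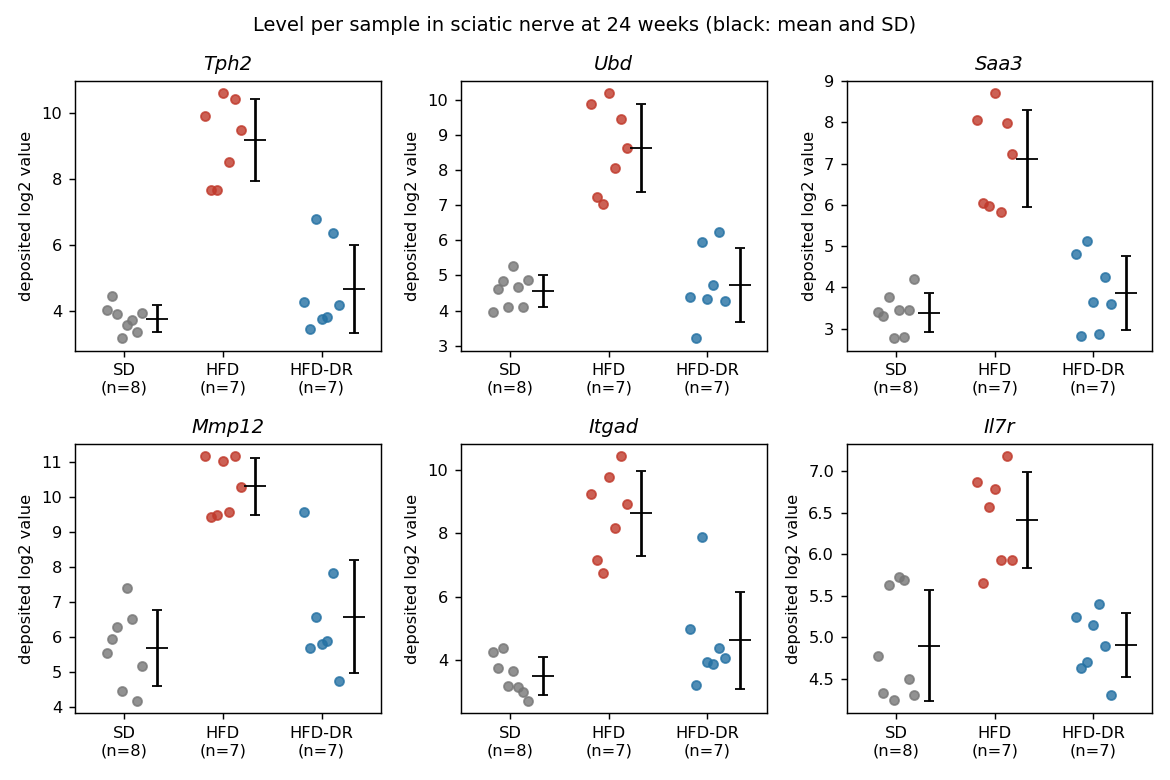
Deposited log2 level (y axis) of 6 genes in each SD, HFD and HFD-DR sample at 24 weeks, with the mean and SD of each group in black. HFD and HFD-DR do not overlap for Tph2, Ubd, Saa3 and Il7r, and 1 HFD-DR sample lies inside the HFD range for Mmp12 and for Itgad.

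The lipid-associated macrophage group, genes that macrophages of obese fat and of injured nerve induce, was mostly lower. Of 14 members tested, 13 were lower in HFD-DR and 10 had an unadjusted p under 0.05, all lower, against 4.57% of all genes. None passed the adjusted test. This list, like the others, was chosen with earlier results of these data known, so the count is no independent test of it. The group's median log2 difference was -0.64. Beyond Mmp12 and Itgad, Atp6v0d2, a lysosomal proton pump subunit, differed by -1.90 (SE 0.36) without overlap. Itgax, the integrin αX of macrophages and dendritic cells, ranged from 6.24 to 8.40 in HFD (median 7.39) and from 5.52 to 6.74 in HFD-DR (median 5.81), a difference of -1.44. Trem2, a lipid-sensing receptor, differed by -0.73, Clec7a, a receptor for fungal glucans, by -0.59 and Gpnmb, a lysosomal glycoprotein, by -0.38. Spp1, Cd9 and Cd300lf differed by -0.04, 0.01 and -0.01. Further genes of this rank without overlap were Adam8, a leukocyte metalloprotease (-2.09, SE 0.38), and Poln, a DNA polymerase (-0.98, SE 0.17).

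Of 10 general macrophage markers tested, 9 were lower with a median of -0.38 (-0.20 without HFD replicate 4 and -0.24 without HFD replicate 6) and 2 had an unadjusted p under 0.05, namely Cd68, a lysosomal membrane protein (-0.90), and Adgre1, an adhesion receptor of tissue macrophages (-0.60). Of 9 tested genes of MHC class II presentation all were lower, 6 with an unadjusted p under 0.05, and the median was -0.38. Ctss, the protease that trims the invariant chain, differed by -0.82, H2-Eb1 by -0.38 and H2-Aa by -0.42. Of 24 chemokines and receptors, 19 were lower with a median of -0.31 (-0.14 without HFD replicate 4), and 8 of them had an unadjusted p under 0.05. Cxcr4, a receptor of homing leukocytes, ranged from 6.06 to 6.55 in HFD (median 6.37) and from 4.78 to 5.99 in HFD-DR (median 5.81) without overlap, a difference of -0.75 (SE 0.19, limma adjusted p = 0.332). Ccl9 differed by -0.99 and Cxcl9, an interferon-induced chemokine, by -0.98. The T and B lymphocyte markers were lower in 9 of 9 with a median of -0.36 (-0.21 without HFD replicate 7), and only Trac, the T cell receptor α constant chain, had an unadjusted p under 0.05 (-0.71).

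Of 15 acute-phase and complement genes tested, 14 were lower with a median of -0.38 (-0.22 without HFD replicate 4) and 5 had an unadjusted p under 0.05. Hp, haptoglobin, ranged from 12.99 to 16.06 in HFD (median 15.05) and from 10.10 to 13.89 in HFD-DR (median 12.58), a difference of -2.53 (SE 0.59). The 2 ranges overlapped. Orm1, an orosomucoid, differed by -1.37 and C3, the central complement component, by -0.42, while Lcn2, a lipocalin of acute inflammation, differed by -0.28. Interferon-stimulated genes stood on both sides of 0, with 7 lower and 11 higher of 18 and a median of 0.03.

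Mast cell genes were lower in every one of 8 markers, 7 of them with an unadjusted p under 0.05, and the median was -0.89. Their mean level ranged from 7.65 to 8.72 in HFD and from 6.39 to 8.15 in HFD-DR. Fcer1a, the high-affinity IgE receptor, ranged from 5.56 to 6.59 in HFD (median 5.87) and from 4.12 to 5.73 in HFD-DR (median 5.03), a difference of -0.94 (SE 0.24, limma adjusted p = 0.351). Cpa3, a granule carboxypeptidase, differed by -1.11 and Mcpt4, a granule chymase, by -0.98. The median difference of these markers was -0.76 for HFD-DR minus SD and 0.15 for HFD minus SD. The lipid-associated macrophage genes had medians of -0.05 and 0.52 in those comparisons.

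Lipid storage genes were mostly lower, with no gene past the adjusted test. Of 12 tested genes of triglyceride synthesis, 9 were lower, 4 with an unadjusted p under 0.05, and the median was -0.14. It was -0.09 and -0.07 without HFD replicates 1 and 6, and -0.23, -0.26 and -0.23 without HFD replicates 2 and 3 and HFD-DR replicate 6. Dgat2, an acyltransferase of the last step, ranged from 12.04 to 14.91 in HFD (median 13.76) and from 11.07 to 13.10 in HFD-DR (median 12.30), a difference of -1.32 (SE 0.46, limma adjusted p = 0.633). Dgat1, its unrelated counterpart, differed by -0.26. Mogat2, which acylates monoacylglycerol, differed by -1.42 (SE 0.40), with medians of 5.51 in HFD and 3.88 in HFD-DR. All these ranges overlapped between the groups.

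Of 17 lipid droplet and lipolysis genes, 14 were lower with a median of -0.37, 6 of them with an unadjusted p under 0.05. Cidec, a droplet-fusion protein of fat cells, differed by -1.51, Plin2, a droplet coat protein of many cells, by -0.72 and Plin1, the coat protein of fat cells, by -0.92. Fitm1, a droplet protein of muscle, went the other way at 2.55. Of 16 fatty acid uptake genes, 12 were lower, 5 with an unadjusted p under 0.05, and the median was -0.15 (-0.08 without HFD replicate 6 and -0.25 without HFD-DR replicate 4). Fabp4, the fatty acid carrier of fat cells, differed by -1.29, Cd36, a fatty acid translocase, by -1.23 and Lpl, lipoprotein lipase, by -1.12.

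Genes of fatty acid synthesis and desaturation were mostly higher. Of 15 genes tested, 12 were higher in HFD-DR and 3 of these had an unadjusted p under 0.05, against 2.15% of all genes, with a median of 0.18. That median was 0.09 without the 4 samples of the highest muscle marker means. Fasn, fatty acid synthase, ranged from 13.41 to 14.14 in HFD (median 13.82) and from 13.79 to 14.86 in HFD-DR (median 14.02), a difference of 0.43 (SE 0.16, limma adjusted p = 0.642). Fads2, a desaturase, differed by 0.30 and Acaca, acetyl-CoA carboxylase, by 0.26, the latter with 42.8% of its windows of 100 bases also found in other genes. Scd1, the Δ9 desaturase, differed by 0.07. Fatty acid oxidation genes (13 of 19 higher, median 0.10) and cholesterol genes (12 of 19 higher, median 0.04) had 0 and 1 members with an unadjusted p under 0.05. The fatty acid oxidation median ranged from -0.06 (without HFD-DR replicate 5) to 0.15 when 1 sample was left out, and was -0.10 without the 4 samples of the highest muscle marker means.

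**Figure D4:**
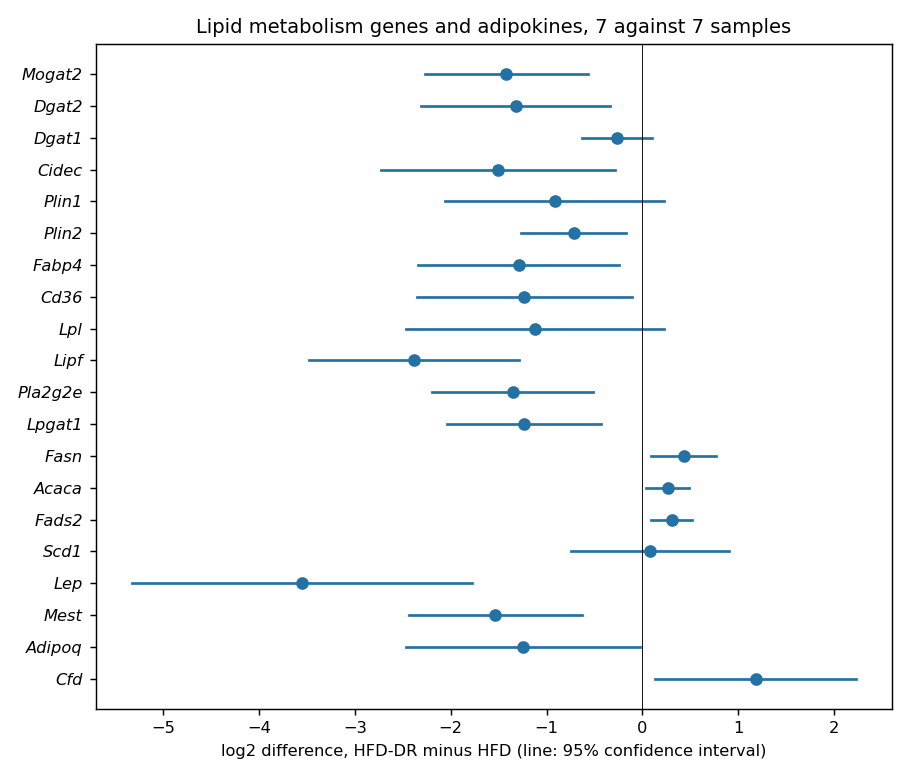
Log2 difference, HFD-DR minus HFD, with its 95% confidence interval for 20 lipid metabolism genes and adipokines (y axis), from 7 against 7 samples. Storage and uptake genes lie left of 0, Fasn, Acaca and Fads2 right of it, and Lep and Cfd lie on opposite sides.

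Adipokines differed in both directions. Lep, leptin, ranged from 11.52 to 15.09 in HFD (median 13.75) and from 7.47 to 12.58 in HFD-DR (median 9.86). The ranges overlapped, and the difference was -3.55 (SE 0.84, limma adjusted p = 0.286). Mest, a gene that marks fat cell enlargement, ranged from 9.37 to 12.48 in HFD (median 10.95) and from 8.72 to 10.17 in HFD-DR (median 9.46), a difference of -1.54. The neighbouring gene Copg2 overlaps 23.1% of its exon bases, so their reads may be shared. Adipoq, adiponectin, differed by -1.24. Cfd, adipsin, ranged from 12.02 to 14.66 in HFD (median 13.21) and from 12.62 to 15.68 in HFD-DR (median 14.62), a difference of 1.18. In all, 12 of 15 adipokine and regulator genes were lower, 5 with an unadjusted p under 0.05, and the median was -0.68.

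Of 14 phospholipase and lysophospholipid genes, 10 were lower, 5 of them with an unadjusted p under 0.05, and the median was -0.14. Lipf, a gastric-type lipase, ranged from 4.23 to 7.13 in HFD (median 6.19) and from 2.49 to 4.86 in HFD-DR (median 3.14), a difference of -2.39 (SE 0.52, limma adjusted p = 0.232). Lpgat1, a lysophosphatidylglycerol acyltransferase, differed by -1.24 and Pla2g2e, a secreted phospholipase, by -1.35. Slc5a7, the high-affinity choline transporter of cholinergic terminals, ranged from 7.11 to 10.62 in HFD (median 8.92) and from 4.66 to 7.51 in HFD-DR (median 5.19). Only the edges of the 2 ranges met, and the difference was -3.07 (SE 0.59, limma adjusted p = 0.112). The median of the 11 tested choline genes was 0.00.

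Genes of the myelin sheath differed by little. Of 16 peripheral myelin genes, 14 were higher in HFD-DR with a median of 0.09, and 3 had an unadjusted p under 0.05. Mbp and Pmp22 differed by 0.03 each. Egr2, the transcription factor of myelinating Schwann cells, differed by 0.37 and Mag, an inner myelin glycoprotein, by 0.23. The myelinating Schwann cell markers had a mean of 16.3 to 16.9 in HFD and 16.5 to 17.0 in HFD-DR, with Mbp between 19.43 and 20.18 in HFD, and non-myelinating Schwann cell markers had a median difference of 0.08.

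Jun, a transcription factor that Schwann cells induce after injury, led the genes that were higher in HFD-DR. It ranged from 11.55 to 12.08 in HFD (median 11.77) and from 12.00 to 12.41 in HFD-DR (median 12.23), and the ranges overlapped only at the edge. Its difference was 0.44 (SE 0.08, limma adjusted p = 0.102, exact permutation p = 0.00117), and the antisense gene Junos overlaps 7.3% of its exon bases. Other named genes of this rank were Dusp8, a phosphatase of stress kinases (0.46), Cyr61, a matricellular gene (0.40), Itgb3, an integrin β chain (0.46), and Nop56, a nucleolar protein (0.22). No other member of the 12 repair Schwann cell genes tested had an unadjusted p under 0.05, and the group's median was 0.09. Sox2 and Ngfr differed by 0.17 and -0.01.

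The axonal transcripts that could be tested gave a mixed picture. Of 10 tested, 5 were lower and 5 higher with a median of 0.01. Nefl, Nefm, Tubb3, Calca, Tac1, Scn10a and Avil were left out by the limits on low or high values. The result does not cover them. Kcnj14, an inward rectifier potassium channel, ranged from 5.58 to 8.19 in HFD (median 7.31) and from 2.92 to 6.11 in HFD-DR (median 4.85), a difference of -2.43 (SE 0.53, limma adjusted p = 0.252). Other genes hold 20.4% of its windows of 100 bases. Sez6l, a neuronal membrane protein, differed by -1.77, and Stmn2, a microtubule regulator of growing axons, by -0.41. Among 14 node and paranode genes 1 (7.14%) had an unadjusted p under 0.05, close to the 6.72% of all genes. It was Cntn2, a juxtaparanodal adhesion protein (-0.67). Of 18 clock genes, 0 had an unadjusted p under 0.05, with Arntl at 0.23, Per2 at -0.07, Dbp at 0.00 and Nr1d1 at -0.04.

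Cell cycle genes were lower in 14 of 15 with a median of -0.62. The median ranged from -0.79 to -0.42 with 1 sample left out, and was -0.33 without the 4 samples of the highest muscle marker means. Plk1, a mitotic kinase, ranged from 4.56 to 6.32 in HFD (median 5.22) and from 4.11 to 5.53 in HFD-DR (median 4.53), a difference of -0.73. Cdk1, the mitotic cyclin-dependent kinase, differed by -0.81, Ube2c by -0.91 and Top2a by -0.85, and these 4 were the members with an unadjusted p under 0.05. The ranges of Plk1 overlapped over most of their width.

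Oxidative phosphorylation genes were higher in 16 of 18 (median 0.19) with 0 members at an unadjusted p under 0.05, and glucose and glycolysis genes in 15 of 18 (median 0.10), where the members with an unadjusted p under 0.05 were Pgam2 (2.25) and Eno3 (2.06), the muscle forms of their enzymes. Without HFD-DR replicate 5 these medians were 0.03 and -0.02, and without the 4 samples of the highest muscle marker means they were -0.02 and -0.07. Insulin and IGF signalling genes had 11 lower of 17 and a median of -0.06, with 0 members at that threshold. Collagens had 9 lower of 14 and a median of -0.08, and matrix remodelling genes 15 lower of 18 and a median of -0.14. The median was -0.13 for fibroblast and perineurial markers, 0.00 for endothelial and mural markers and -0.64 for red blood cell markers (-0.30 without HFD replicate 4 and -0.42 without HFD replicate 7).

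**Figure D5:**
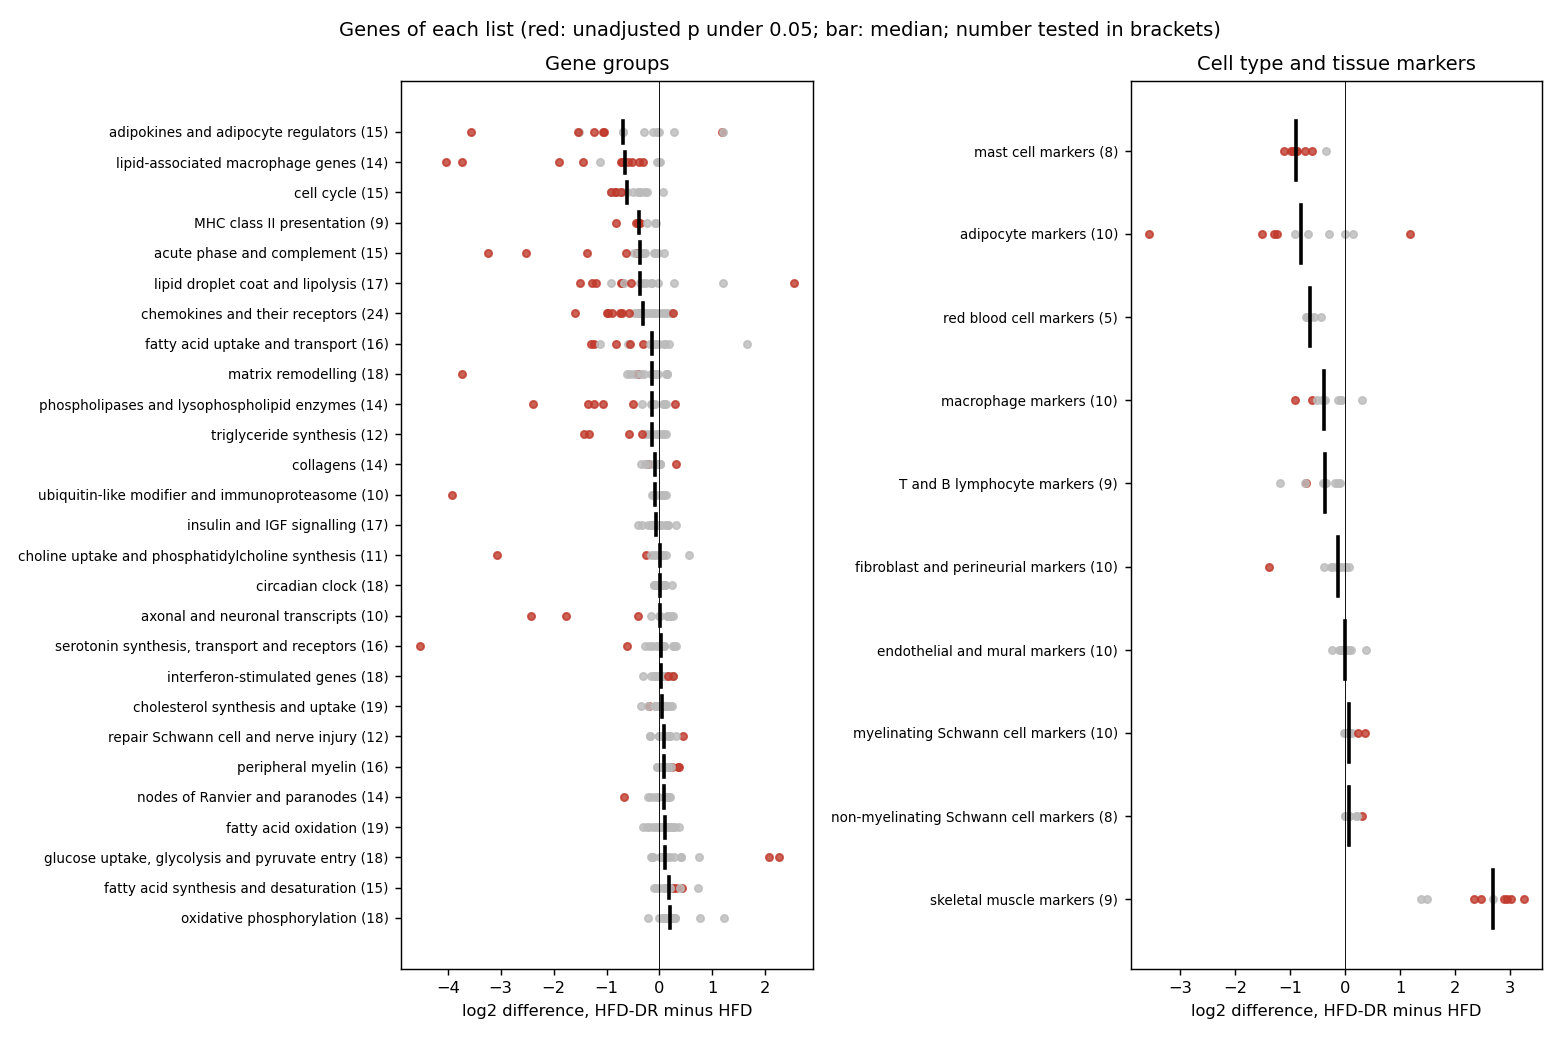
Each point is 1 tested gene of the list named on the y axis, at its log2 difference, HFD-DR minus HFD (x axis), in red where the unadjusted limma p is under 0.05, and the bar is the list's median. Adipokines, lipid-associated macrophage genes, cell cycle genes and mast cell markers lie mostly left of 0, and skeletal muscle markers lie right of it.

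Muscle and fat markers also differed between the groups, with none past the adjusted test. The part of other tissue in the differences above was not tested beyond the fits with marker covariates. Skeletal muscle markers were higher in HFD-DR in 9 of 9 tested, 6 with an unadjusted p under 0.05, and the median was 2.68. Their mean level ranged from 6.58 to 13.6 in HFD and from 8.60 to 13.9 in HFD-DR, with Ckm, the muscle creatine kinase, from 5.93 to 14.84 and from 9.37 to 15.72. No marker was at 0, but Tnnc2 stayed at or below 0.53 in samples where Acta1 reached 18.3, so it was not tested. Adipocyte markers were lower in 8 of 10 tested, 4 with an unadjusted p under 0.05, and the median was -0.80. No adipocyte marker was at 0. The first component of variation (31.8%) correlated at r = -0.88 with the muscle marker mean and the second (22.3%) at -0.81 with the adipocyte marker mean, over the 14 samples. With the muscle mean as a covariate 0 genes passed, and the log2 differences were -4.57 for Tph2 and -4.29 for Ubd (limma adjusted p = 0.0938 and 0.0714). With both means, 4 genes passed, namely Ubd, Hp, Tph2 and Cfd, and 504 had an unadjusted p under 0.05. Cfd is itself among the adipocyte markers averaged into the adipocyte covariate. Without the 4 samples with the highest muscle means, left out after the data were seen, 0 genes passed and Tph2 and Ubd differed by -4.39 and -3.99.

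Sample names carry library numbers that fall into runs of consecutive numbers, which the labels do not call a batch. Each of 6 runs held 1 sample of each group. Tph2 was lower in the HFD-DR sample in 6 of 6 runs, with log2 differences from -6.80 to -0.90, and Ubd in 6 of 6, from -6.68 to -1.29. Saa3, Mmp12 and Il7r were lower in 6 of 6 and Itgad in 5 of 6, and Jun was higher in 6 of 6. Dgat2, Plin1, Cidec, Lpl and Orm1 were lower in 3 of 6 runs, as was the adipocyte marker mean. With the run as a block over these 12 samples, 0 genes passed, and the log2 differences were -4.41 for Tph2 and -3.86 for Ubd (limma adjusted p = 0.809 for both).

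Against never-fat-fed mice, HFD-DR nerve showed no gene past the adjusted test. Of 18151 genes, 0 (0%) had an adjusted p under 0.05 (limma, smallest adjusted p = 0.583) and 934 (5.15%) had an unadjusted p under 0.05. Tph2 differed by 0.89 between HFD-DR and SD (95% confidence interval -0.07 to 1.85), and Ubd by 0.18 (-0.62 to 0.98). The HFD against SD differences, which share the HFD samples with the reversal comparison, were 5.42 for Tph2 and 4.09 for Ubd. For Saa3 the 2 differences were 0.48 (HFD-DR minus SD) and 3.73 (HFD minus SD), for Mmp12 0.90 and 4.62, for Itgad 1.11 and 5.14, and for Lep -0.26 and 3.30. The lipid and immune genes named above had HFD-DR minus SD differences of -0.21 for Dgat2, -0.52 for Fasn and 0.35 for Itgax. A p that misses the threshold does not show that HFD-DR and SD were alike.

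The same reversal in mice that also received STZ gave a comparison over separate samples. Of 17868 genes, 15 (0.0839%) passed there. Tph2 fell by 3.62 on the log2 scale (limma adjusted p = 0.0486), and Ubd had a difference of -3.04 (limma adjusted p = 0.0891). The test of the difference between the 2 reversals called 0 of 18172 genes (0%), and 310 (1.71%) had an unadjusted p under 0.05. For Tph2 the reversals differed by -0.90 (95% confidence interval -2.80 to 0.99) and for Ubd by -0.87 (-2.62 to 0.88). Side by side, Saa3 differed by -3.25 without STZ and -3.23 with it, Itgad by -4.03 and -3.06, Jun by 0.44 and -0.06, Cfd by 1.18 and -0.81, and the mast cell markers by medians of -0.89 and -0.10. None of these differences between the reversals passed the adjusted test.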

How the data were processed

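RNA from mouse sciatic nerve was sequenced (the labels name Trizol and an Illumina TruSeq mRNA v2 kit, the study's methods RNeasy and a SMART-Seq v4 kit, without strand). The authors aligned reads to mm10 with HISAT2, counted them per gene with featureCounts and used DESeq2; versions are not given in the sources used here. They deposited 1 log2 value per gene and sample for 49568 genes; the normalization behind the log2 values is not given in the sources used here, and read depth is unknown because no counts were used here, so a fold of a low gene may be understated. Values were compared as deposited, with limma 3.58.1 (R 4.3.3, lmFit and eBayes with trend) and Benjamini-Hochberg adjustment over all genes with a mean of at least 3.32 in the samples compared. Genes with any value above 22 in the series were left out (25 genes, 2 of them in HFD or HFD-DR). The study's own test needs counts. Single genes were also compared with an exact two-sided permutation test. The fit was tested on simulated data.

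The comparison, genes and lists were chosen with earlier results of these data known. Named genes were those past the adjusted threshold, the 15 smallest p per direction without predicted models, a fixed set, and up to 3 per list of 27 gene groups and 10 marker lists; 23 list genes were not tested. Cfd, Pck1, Ddc, Spp1, Cd9, Cd300lf, Clec7a, Lcn2, C3, Fitm1, Cxcl9, Sox2, Ngfr, Top2a and Tnnc2 were named after their values were seen. The untested axonal genes were named because they were left out. Symbols were matched to GENCODE M21. Correlations between any 2 of the 14 samples lay between 0.959 and 0.993, with 0 identical pairs. Alternatives covered filters, the variance prior, samples in the fit, library-number runs, centring, marker covariates and leaving out each sample. A gene of the fixed set is not reported here.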

Additional observations from a re-analysis of the deposited data

Results flagged for a closer look

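Among 162 sets of 7 values checked for a sample far from the others by Dixon's test, 3 stood out, and chance alone flags about 1 in 20. Itgad was at 7.88 in HFD-DR replicate 3, with the nearest HFD-DR sample at 4.99. Trem2 was at 8.89 in HFD-DR replicate 1, with the nearest at 7.73. The red blood cell marker mean was 11.6 in HFD-DR replicate 4, with the nearest at 10.2. Without HFD-DR replicate 3, the log2 difference of Itgad was -4.57 and its adjusted p was 0.00448 (limma). That sample was picked for its high value, so a larger difference was fixed in advance. Over the 14 fits that each left out 1 sample, the limma adjusted p of Itgad reached 0.228 and was under 0.05 in 2.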

How the results depend on the processing

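The directions of Tph2 and Ubd held under every alternative that tested them (Ubd was not tested with the filter applied in every sample), but their adjusted calls did not. The count of genes with an adjusted p under 0.05 was 0 with no filter on low values, without the trend in the prior, with its robust form, with the library-number run as a block, with the muscle covariate and without the 4 samples of the highest muscle means, against 2 as reported. It was 1 with the filter applied in every sample, 4 with both covariates, 8 after centring on sample medians, 18 with all 8 groups in 1 fit, 20 with the adipocyte covariate and 30 with all 8 groups and the run. Leaving out each sample gave 0 to 10 genes, and Tph2 and Ubd were each called in 5 of 14 such fits, with log2 differences of -4.88 to -4.29 and -4.18 to -3.66. The calls were lost without HFD replicates 1, 4, 6 or 7 and without HFD-DR replicates 1, 2, 4, 5 or 7. Fits without a filter tested more genes, and unadjusted counts were then 2381 of 47363 (5.03%) against 1242 of 18479 (6.72%), 2663 (5.62%) against 934 of 18151 (5.15%) for HFD-DR versus SD, and 1150 (2.43%) against 310 of 18172 (1.71%) for the difference between reversals. With both covariates the count was 504, and the cause was not tested. Leaving out 1 sample also moved small list medians by over 1.5 times: the range was -0.16 to -0.02 for collagens, -0.27 to -0.10 for matrix remodelling and -0.26 to -0.01 for fibroblast and perineurial markers. Lower genes made up 68.0% of those with an unadjusted p under 0.05, 51.0% with the adipocyte covariate and 54.6% with both. Over 146 named genes, only Tph2 and Ubd had a call to lose, and 30 of their alternative values no longer passed. For the genes without a call, 52 values newly passed and 16 log2 differences moved by at least the pooled within-group SD. The other 3832 values either kept a call of Tph2 or Ubd, or stayed uncalled with a smaller move, so they do not measure stable calls. The labels give no replicate numbers, so samples were paired only by library-number run.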

Other observations

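Among the genes whose 14 samples did not overlap, some belong to none of the groups described, and they were named after their values were seen. Rhov, a small GTPase, had a log2 difference of -0.82 (SE 0.16, limma adjusted p = 0.125), Serpina3m, a protease inhibitor, one of -1.36 (SE 0.30, limma adjusted p = 0.261), Fgf12, an intracellular fibroblast growth factor homologue that binds sodium channels, one of -0.60 (SE 0.15) and Gtse1, a mitotic microtubule protein, one of -0.67 (SE 0.17). All 4 were lower in HFD-DR.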
